A study of Mus musculus with 12 samples.

Results

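The mitochondrial chromosome of the mouse carries 37 annotated genes, of which 36 were measured here in the cochlea, the part of the inner ear that turns sound into nerve signals, straight after noise. They were taken from a table of 35496 genes as all symbols that begin with mt-, and they comprise 13 protein genes, 2 ribosomal RNA (rRNA) genes and 21 transfer RNA (tRNA) genes. The phenylalanine tRNA gene mt-Tf was not analysed here. Values are given for the 10 tRNA genes that had 10 or more counts in 4 or more libraries, and the other 11 are given by count. FVB/NCrl mice, an inbred strain, were 60 days old (postnatal day 60), carried no transgene that the labels name, and stayed awake during 30 minutes of noise. The level was 70 dB SPL (sound pressure level), which served as the ambient control, or 94 or 105 dB SPL, and TRIzol extraction followed at once. Each level had 4 libraries, 12 in all, built with a TruSeq RNA kit from an input of 1 µg. Whether each library stands for a single mouse or for several is not stated, and p-values therefore reflect only how these libraries vary, which may be technical.

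Mitochondrial DNA is a small circle present in many copies per cell. Both strands are transcribed into long precursors by the polymerase Polrmt, and the tRNAs that lie between the other genes are cut out, which frees the rRNAs and messenger RNAs. The protein genes encode membrane subunits of respiratory complexes I, III and IV and of ATP synthase, and all other subunits come from the nucleus. The rRNAs and tRNAs serve the mitochondrion's own ribosomes. Hair cells and the stria vascularis, the tissue that keeps up the ionic composition of the fluid around the hair cells, are known for a high demand for mitochondrial ATP. In humans, variants in the gene for the small mitochondrial rRNA are a known cause of hearing loss after aminoglycoside antibiotics.

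Total counts lay between 31141706 and 42317781 in the 70 dB libraries, between 32302796 and 38733490 in the 94 dB ones and between 32057388 and 40239711 in the 105 dB ones. All 6 hair cell markers, 4 of the stria vascularis and 3 of fibrocytes were detected in every library, and so were markers of bone, blood, nerve and muscle. The summed level of each of these 9 marker lists overlapped between 94 and 70 dB. Within the 94 dB group, replicates 3 and 4 differed from replicates 1 and 2: haemoglobin genes took 2.90% and 2.95% of their counts, against 1.75% and 2.07%. In whole-tissue RNA, fewer cells of a type and less RNA per cell cannot be told apart.

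The mitochondrial messages spanned a wide range of levels. On the scale of CPM per kb (counts scaled to library size, per kilobase of gene; means over the 4 libraries at 70 dB ± SD), mt-Co1, the catalytic core of complex IV (cytochrome c oxidase), was highest at 12777 ± 762. Next came mt-Cytb, the cytochrome b of complex III, at 7566 ± 295. The complex I genes mt-Nd1 and mt-Nd2 followed at 6721 ± 117 and 5099 ± 721, and then mt-Nd6, mt-Nd4 and mt-Nd5 at 3375 ± 540, 3045 ± 276 and 2475 ± 148. The ranges of mt-Nd6, mt-Nd4 and mt-Nd5 overlapped one another, so the order among them is not settled by these libraries. On the same scale the rRNA genes mt-Rnr2 and mt-Rnr1 were at 726 ± 205 and 665 ± 136. How evenly the library kit captured rRNAs and messenger RNAs was not measured here. The levels of these classes relative to each other therefore describe the libraries, not the tissue. The other 6 protein genes were far lower: mt-Co2 at 112 ± 29.0, mt-Atp6 at 94.0 ± 5.91, mt-Co3 at 76.7 ± 18.2, mt-Nd4l at 29.3 ± 2.66, mt-Nd3 at 13.8 ± 2.86 and mt-Atp8 at 9.51 ± 2.54. Ranges also overlapped between the rRNA genes, among mt-Co2, mt-Atp6 and mt-Co3, and between mt-Nd3 and mt-Atp8. Thus 7 genes held 99.04% to 99.67% of all protein-gene counts in every library.

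**Figure D1:**
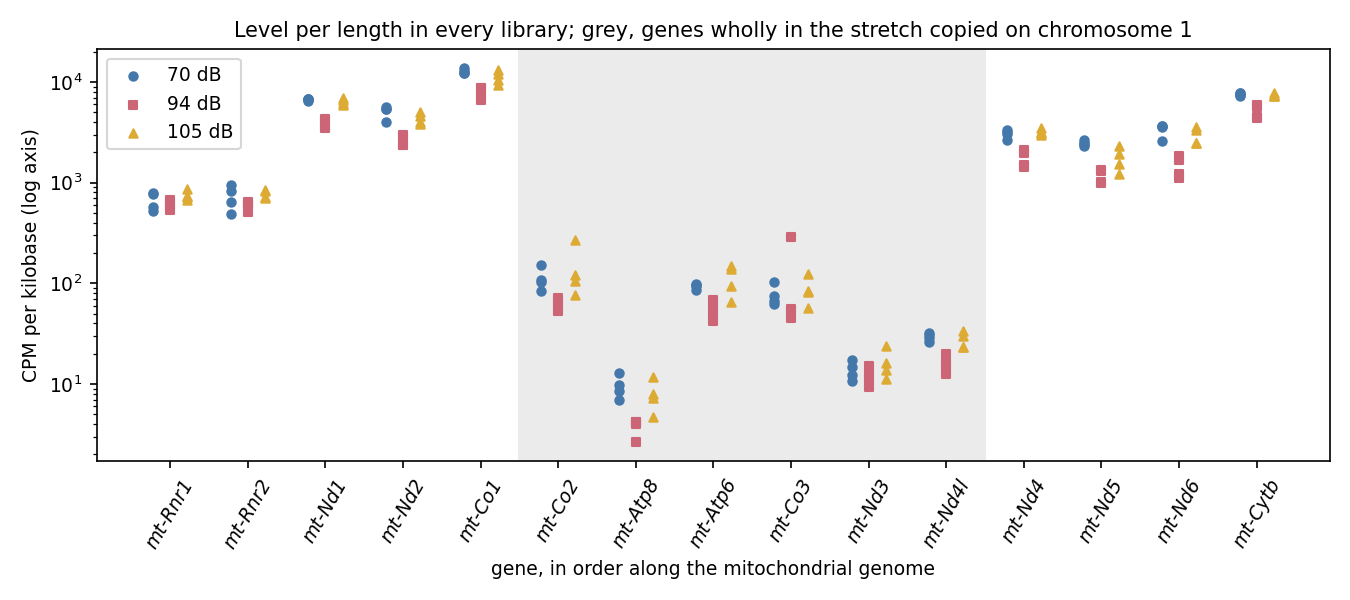
Level of the 2 rRNA and 13 protein genes in each of the 12 libraries, in CPM per kilobase on a log axis, with genes in their order along the mitochondrial genome and 1 point per library. The 6 genes on grey lie wholly in the stretch copied on chromosome 1 and sit far below their neighbours at every noise level.

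These 6 low genes lie next to each other. In the GRCm38 assembly (mm10), bases chrM:6390-11042 reach from within mt-Co1 to within mt-Nd4, and a stretch of nuclear DNA at chr1:24611535-24616197 on the minus strand carries 7 annotated pseudogenes that match it. Over their aligned parts the copies were 99.7% to 100% identical to the mitochondrial genes, and 5 of the 7 had no mismatch. The copies cover nearly all of mt-Co2, mt-Atp6, mt-Co3, mt-Nd3 and mt-Nd4l, the last 483 bases of mt-Co1 and the first 876 bases of mt-Nd4, and mt-Atp8 lies between copied genes without an annotated copy of its own. How the submitters treated reads that match several places is not given in the sources used here, and reads from such identical sequence cannot be assigned by sequence. The first 60 bases of mt-Co2 (chrM:7013-7072, plus strand) are set beside those of its copies Gm28661 (chr1:24615506-24615565, minus strand) and Gm13341 (chr2:22587903-22587962, minus strand), since they show how alike the copies are; capitals mark mismatches to mt-Co2.
mt-Co2: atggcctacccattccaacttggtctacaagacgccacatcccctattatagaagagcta
Gm28661: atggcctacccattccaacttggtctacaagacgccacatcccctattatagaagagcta
Gm13341: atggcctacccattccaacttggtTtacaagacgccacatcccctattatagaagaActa
The counts given to Gm28661 were 0.858 to 1.42 times those of mt-Co2 across libraries, and those of Gm28438 were 2.68 to 5.07 times those of its source mt-Nd3. Levels of the 6 genes are therefore uncertain in themselves, and their comparisons are kept apart below. The copies also cover 31.3% of mt-Co1 and 63.6% of mt-Nd4. Levels of these 2 genes per kilobase of full length, and ranks based on them, are therefore uncertain too. The stretch also spans 5 tRNA genes (mt-Ts1, mt-Td, mt-Tk, mt-Tg and mt-Tr), none of which reached the count rule, while 10 of the 16 tRNA genes outside it did.

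The first comparison asked how these transcripts differed after noise of 94 dB, which the sample titles call loud. Protein genes of the mitochondrial genome took 3.37%, 3.42%, 2.55% and 2.56% of all counts in the 94 dB libraries, against 4.95%, 5.18%, 5.46% and 5.11% in the 70 dB libraries. Every 94 dB library was below every 70 dB library, and replicates 3 and 4 at 94 dB were the lowest; without that pair the 94 dB mean was 3.39% instead of 2.97%. With haemoglobin genes left out of the total, the means were 3.04% at 94 dB and 5.27% at 70 dB. In the test of single genes (edgeR's quasi-likelihood test with Benjamini-Hochberg adjustment over 19497 genes, threshold 0.05), 10 of the 13 protein genes were lower at 94 dB, none was higher and 3 did not pass. Of all genes tested, 26.1% passed in this comparison (12.2% of all genes as lower and 13.9% as higher). The median log2 fold change was -0.81 over the 13 protein genes and -0.02 over all genes. The libraries of the groups did not overlap in 11 of the 13 genes, all lower at 94 dB, where 12.3% of all genes lay wholly lower.

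**Figure D2:**
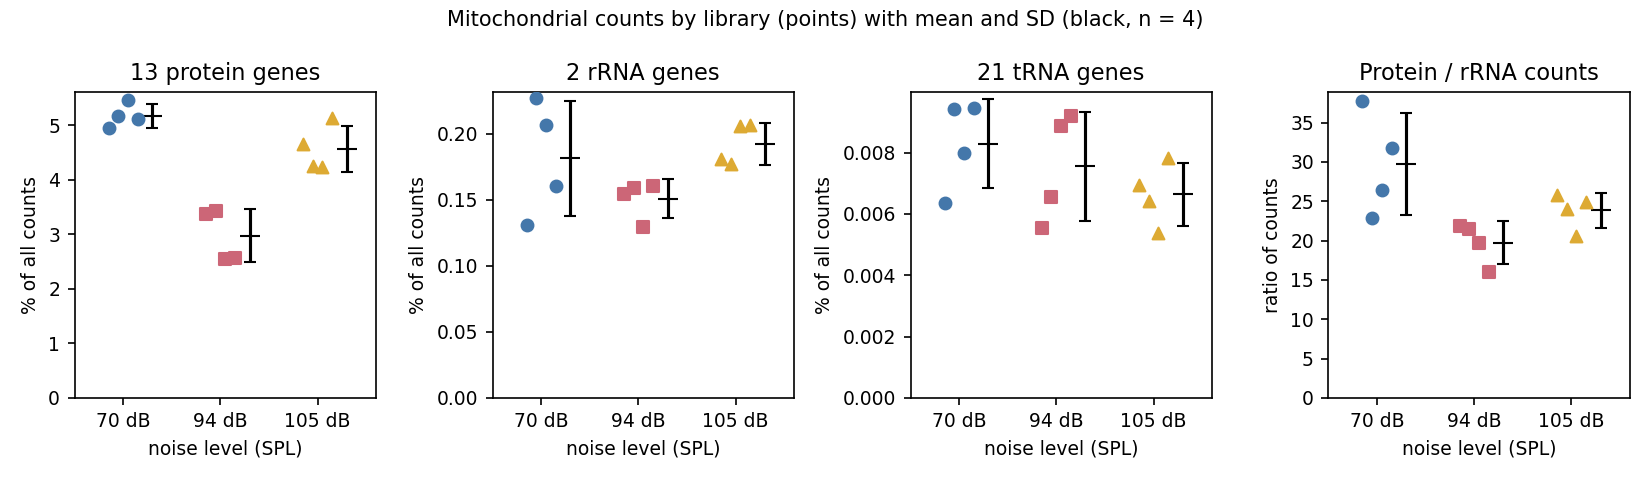
Share of all counts taken by the 13 protein genes, the 2 rRNA genes and the 21 tRNA genes (percent), and the ratio of protein-gene to rRNA-gene counts, for each library at 70, 94 and 105 dB SPL, with the mean and SD of 4 libraries in black. The protein-gene share at 94 dB is below that at 70 and 105 dB in every library, while the rRNA and tRNA shares at 94 dB overlap those at 70 dB.

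Complex I (NADH dehydrogenase), the first enzyme of the respiratory chain, is encoded in part by the mt-Nd genes. The membrane subunit gene mt-Nd1, which lies right behind the rRNA genes, had 4029, 4089, 3542 and 3364 CPM in the 94 dB libraries, against 6267, 6494, 6508 and 6460 CPM in the 70 dB libraries. The groups were far apart, and mt-Nd1 fell by 0.78 on the log2 scale (SE 0.08, edgeR adjusted p = 2.31e-05). Expression of mt-Nd5, which encodes a proton-pumping subunit, was 2360, 2466, 1858 and 1795 CPM at 94 dB, against 4241, 4435, 4886 and 4498 CPM at 70 dB. This was the largest fall among the 7 abundant genes apart from mt-Nd6, with a log2 fold change of -1.09 (SE 0.17, edgeR adjusted p = 6.92e-04). The proton-pumping subunit genes mt-Nd2 and mt-Nd4 averaged 2747 ± 352 and 2398 ± 468 CPM at 94 dB, against 5293 ± 749 and 4196 ± 381 CPM at 70 dB (SD, n = 4 each). Both fell, mt-Nd2 with a log2 fold change of -0.95 (SE 0.12) and mt-Nd4 with -0.81 (SE 0.12), at edgeR adjusted p-values of 9.1e-05 and 2.5e-04. Among the 70 dB libraries, replicate 1 was low for mt-Nd2, at 4184 CPM against 5546 to 5823 CPM in the others.

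mt-Nd6 is the single protein gene on the opposite strand. Its libraries held 950, 870, 632 and 575 CPM at 94 dB, against 1334, 1841, 1916 and 1915 CPM at 70 dB. All 94 dB values were below the lowest 70 dB value, which was again that of replicate 1, and mt-Nd6 fell by 1.21 on the log2 scale (SE 0.19, edgeR adjusted p = 9.86e-04). The ends of mt-Nd5 and mt-Nd6 meet tail to tail and share 14 bases (chrM:13552-13565), printed in capitals on the strand of mt-Nd5 because the last bases are its TAA stop codon and the first are that of mt-Nd6 read from the other strand.
mt-Nd5/mt-Nd6: TTAATCTCGAGTAA
Whether the submitters counted by strand is not given in the sources used here, so reads from mt-Nd6 and from the other strand opposite it cannot be told apart. In the copied stretch, mt-Nd4l averaged 4.69 ± 0.888 CPM at 94 dB and 8.69 ± 0.790 CPM at 70 dB (SD, n = 4 each), with a log2 fold change of -0.89 (SE 0.15, edgeR adjusted p = 8.6e-04). Its copy Gm10222 was lower too, at a log2 fold change of -0.55 (SE 0.13, edgeR adjusted p = 0.00778). As their shared sequence is identical, the counts of mt-Nd4l and Gm10222 are not separate measurements. For mt-Nd3 the groups overlapped, at 4.21 ± 0.860 CPM at 94 dB and 4.79 ± 0.994 CPM at 70 dB (SD, n = 4 each), with an edgeR adjusted p of 0.585.

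Cytochrome b, the product of mt-Cytb, holds the haem groups through which complex III passes electrons. The gene had 6541, 6737, 5041 and 5138 CPM in the 94 dB libraries, against 8932, 8519, 8929 and 8240 CPM in the 70 dB libraries. These groups did not overlap either, although the log2 fold change of -0.56 (SE 0.10, edgeR adjusted p = 8.13e-04) was the smallest among the 7 abundant genes. In complex IV, mt-Co1 had 13387, 13592, 10265 and 11161 CPM at 94 dB, against 18886, 19914, 21339 and 18822 CPM at 70 dB. It fell by 0.71 on the log2 scale (SE 0.12, edgeR adjusted p = 6.17e-04), with every 94 dB library below every 70 dB library. The copper-binding subunit gene mt-Co2 had 48.5, 46.2, 36.1 and 40.7 CPM at 94 dB, against 57.4, 104, 70.1 and 73.9 CPM at 70 dB. Although its groups did not overlap, it missed the threshold, with a log2 fold change of -0.83 (SE 0.36, edgeR adjusted p = 0.125). Among the 105 dB libraries, which share the fit, replicate 3 held 183 CPM of mt-Co2 against 52.3 to 83.0 CPM in the others, and without that library the adjusted p was 0.013. For mt-Co3, 94 dB replicate 2 held 225 CPM against 35.2 to 43.5 CPM in the other 94 dB libraries, and the 70 dB libraries held 49.1 to 80.7 CPM. The log2 fold change of mt-Co3 was 0.52 (SE 0.60, edgeR adjusted p = 0.570) with replicate 2 and -0.58 (adjusted p = 0.141) without it.

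The ATP synthase subunits encoded here, mt-Atp6 of the proton channel and the small mt-Atp8, also lie in the copied stretch. In the 94 dB libraries mt-Atp8 had 0.824, 0.850, 0.536 and 0.857 CPM, against 1.40, 1.98, 1.74 and 2.63 CPM in the 70 dB libraries. It fell by 1.32 on the log2 scale (SE 0.28, edgeR adjusted p = 0.00334), on 17 to 89 counts per library, and without 94 dB replicates 3 and 4 its adjusted p was 0.0524. mt-Atp6 averaged 37.4 ± 7.50 CPM at 94 dB and 64.0 ± 4.02 CPM at 70 dB (SD, n = 4 each), with a log2 fold change of -0.77 (SE 0.24, edgeR adjusted p = 0.0373). That call ended when any of 70 dB replicates 1 to 4 or 94 dB replicates 1, 3 or 4 was left out (adjusted p of 0.0532 to 0.102), and when the counts of its copy Gm10925 were added to it (log2 fold change -0.67, adjusted p = 0.245). Their open reading frames overlap by 43 bases (chrM:7927-7969, plus strand), which run from the ATG start codon of mt-Atp6 to the TAA stop codon of mt-Atp8 and are all in capitals as shared sequence.
mt-Atp8/mt-Atp6: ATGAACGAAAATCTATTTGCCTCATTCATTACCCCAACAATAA
Reads within these bases belong to both genes, and how they were counted is not given in the sources used here.

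All 7 genes that do not lie wholly in the copied stretch fell at 94 dB, and 3 of the 6 wholly inside it did. Of the 7, mt-Co1 and mt-Nd4 lie partly in the stretch. Without 94 dB replicates 3 and 4, 8 of the 13 protein genes were called, where 1610 of 20202 genes tested were (576 as lower). The calls of the 7 genes not wholly in the stretch, and that of mt-Nd4l, held under each of the 25 alternatives that were tried. These included every single library left out. With replicates 3 and 4 at 94 dB left out, the log2 fold changes of the 7 genes were smaller, at -0.66 for mt-Nd1, -0.79 for mt-Nd2, -0.55 for mt-Co1, -0.58 for mt-Nd4, -0.90 for mt-Nd5, -0.94 for mt-Nd6 and -0.38 for mt-Cytb. With counts of the chromosome 1 copies added to their mitochondrial genes, a choice made after seeing the data, 9 of the 13 protein genes were called lower. Of all 19490 genes tested there, 2370 were called lower.

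Neither of the 2 rRNA genes passed the test, and whether they differed from the protein genes was not tested. For mt-Rnr1, the RNA of the small mitochondrial ribosomal subunit, the 94 dB libraries held 554, 609, 514 and 646 CPM, against 495, 756, 734 and 554 CPM in the 70 dB libraries. The groups overlapped, with a log2 fold change of -0.13 (SE 0.13, edgeR adjusted p = 0.497). The RNA of the large subunit, mt-Rnr2, was at 962, 975, 805 and 1020 CPM at 94 dB, against 768, 1504, 1309 and 1015 CPM at 70 dB. Here too the groups overlapped, with 70 dB replicate 1 the lowest of all 8 libraries and 94 dB replicate 4 just above 70 dB replicate 4, and with a log2 fold change of -0.29 (SE 0.17, edgeR adjusted p = 0.226). Without that library mt-Rnr2 passed the threshold, at a log2 fold change of -0.44 and an adjusted p of 0.0182. The ratio of protein-gene to rRNA-gene counts was 21.8, 21.5, 19.7 and 15.9 in the 94 dB libraries, against 37.8, 22.8, 26.4 and 31.8 in the 70 dB libraries. All 94 dB ratios were below all 70 dB ratios, by a narrow margin between 94 dB replicate 1 and 70 dB replicate 2. These ratios also depend on how the kit captured each class, which was not measured.

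Of the 10 tRNA genes that met the count rule, mt-Tl2 and mt-Ty were higher at 94 dB, mt-Tp was lower and 7 did not pass. These 3 calls among 10 genes are near the 26.1% called over all genes (13.9% higher, 12.2% lower), so the count says nothing particular about the class. Their counts were small: the class took 0.00555% to 0.00920% of a library at 94 dB and 0.00635% to 0.00944% at 70 dB, and mt-Tp, mt-Tn and mt-Tc together held 81.5% to 93.5% of it over all 12 libraries. A read on a tRNA gene of 59 to 75 bases can come from the tRNA or from a longer precursor that spans it, and the counts do not tell these apart. The tRNAs with the main differences, and mt-Tl1 as the other leucine tRNA, have these sequences in GRCm38, with the anticodon in capitals: mt-Tl2 (chrM:11671-11741, plus strand), mt-Tl1 (chrM:2676-2750, plus strand), mt-Ty for tyrosine (chrM:5260-5326, minus strand), mt-Tn for asparagine (chrM:5089-5159, minus strand) and mt-Tp for proline (chrM:15356-15422, minus strand).
mt-Tl2: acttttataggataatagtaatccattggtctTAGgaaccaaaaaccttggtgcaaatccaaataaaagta
mt-Tl1: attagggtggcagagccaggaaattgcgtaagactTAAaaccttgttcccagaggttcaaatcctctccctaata
mt-Ty: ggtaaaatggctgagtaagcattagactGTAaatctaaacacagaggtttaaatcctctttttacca
mt-Tn: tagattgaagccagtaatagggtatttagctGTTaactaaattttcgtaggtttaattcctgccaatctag
mt-Tp: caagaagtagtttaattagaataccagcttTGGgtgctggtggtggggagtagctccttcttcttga
mt-Tl2, which reads the CUN leucine codons and lies directly before mt-Nd5, had 1.15, 1.19, 1.01 and 0.803 CPM in the 94 dB libraries, against 0.117, 0.471, 0.200 and 0.408 CPM in the 70 dB libraries. Every 94 dB library was above every 70 dB library, and mt-Tl2 rose with a log2 fold change of 1.79 (SE 0.45, edgeR adjusted p = 0.00845), on 3 to 45 counts per library over all 12. In contrast, mt-Tl1, which reads the UUR leucine codons and lies directly before mt-Nd1, averaged 1.68 ± 0.443 CPM at 94 dB and 1.63 ± 0.255 CPM at 70 dB (SD, n = 4 each; edgeR adjusted p = 0.903).

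The tyrosine tRNA gene mt-Ty had 2.09, 2.58, 2.08 and 1.29 CPM in the 94 dB libraries, against 0.983, 0.966, 1.20 and 0.721 CPM in the 70 dB libraries. It rose with a log2 fold change of 1.05 (SE 0.26, edgeR adjusted p = 0.00868), and its groups did not overlap; 13% of all genes lay wholly higher in this comparison. mt-Tp, the most abundant tRNA gene here, had 28.2, 34.8, 41.8 and 44.2 CPM at 94 dB, against 38.4, 64.0, 55.7 and 62.1 CPM at 70 dB. Its groups overlapped through 70 dB replicate 1, with a log2 fold change of -0.56 (SE 0.18, edgeR adjusted p = 0.0399), and 12 of 25 alternatives ended the call, among them 8 that left out a single library (70 dB replicates 2, 3 and 4, 94 dB replicates 1, 2 and 3, 105 dB replicates 1 and 3; adjusted p of 0.0509 to 0.110). For mt-Tn the 94 dB libraries were split, with 7.18 and 8.79 CPM in replicates 1 and 2 and 21.4 and 25.1 CPM in replicates 3 and 4, against 4.69 to 8.90 CPM at 70 dB. It did not pass with all libraries (log2 fold change 1.21, SE 0.43, edgeR adjusted p = 0.0621), but did without 94 dB replicate 1 (adjusted p = 0.0212) or replicate 2 (adjusted p = 0.0407) and with DESeq2 (adjusted p = 0.0241). The neighbouring mt-Tc, for cysteine, showed the same split on a smaller scale, with 9.15 and 9.72 CPM against 17.6 and 19.5 CPM, and a log2 fold change of 0.19 (SE 0.24, edgeR adjusted p = 0.605).
The calls of mt-Tl2 and mt-Ty held under each alternative that gave a value, 24 and 25 of them. mt-Tw (tryptophan), mt-Te (glutamate), mt-Th (histidine) and mt-Ts2 (serine) had log2 fold changes of -0.30, 0.68, -0.40 and -0.94 and adjusted p-values of 0.200 to 0.525. The 11 tRNA genes below the count rule held 1 to 57 counts each over all 12 libraries and at most 17 in a library, and were not compared.

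**Figure D3:**
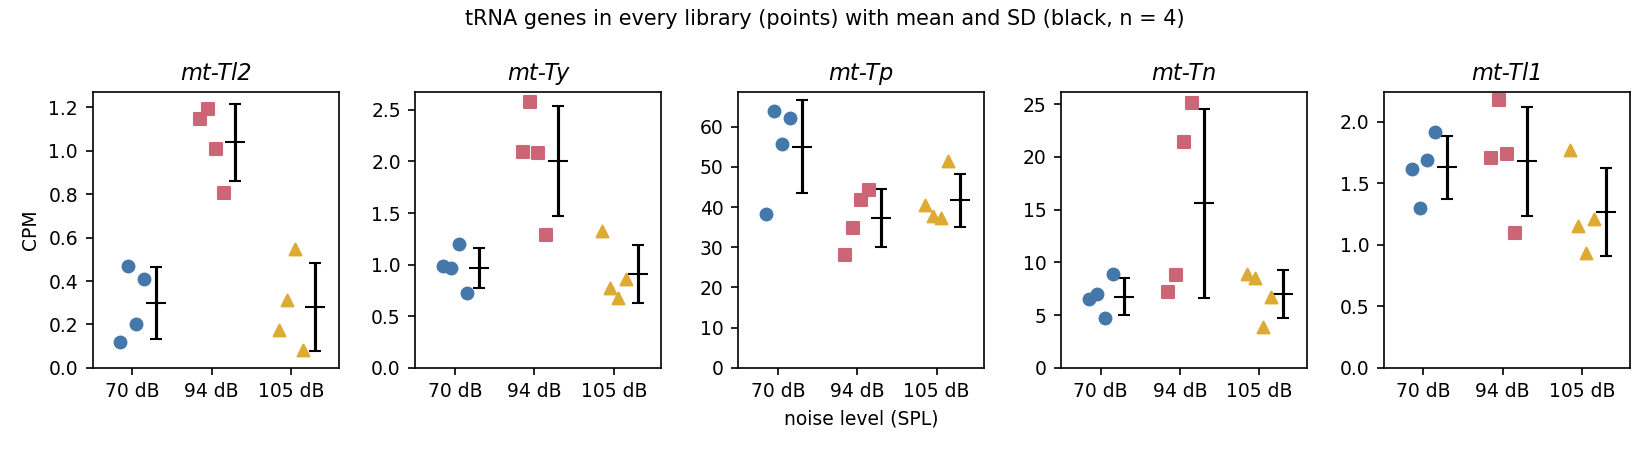
CPM of 5 tRNA genes in each library at 70, 94 and 105 dB SPL, with the mean and SD of 4 libraries in black. mt-Tl2 and mt-Ty are higher at 94 dB than at 70 dB in every library, mt-Tn is high in 94 dB replicates 3 and 4 alone, and mt-Tl1 shows no separation.

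Shares among the abundant protein genes differed as well. Within the counts of the 7 abundant protein genes, mt-Nd5 took 7.16%, 7.31%, 7.19% and 6.79% at 94 dB, against 8.92%, 8.63%, 9.09% and 9.06% at 70 dB. The mt-Cytb share was 19.4% to 20.0% at 94 dB, against 16.6% to 18.8% at 70 dB. Thus mt-Nd5 took less and mt-Cytb took more of the counts of these 7 genes in every 94 dB library than in any 70 dB library. The shares were not tested, and their total includes mt-Co1 and mt-Nd4, whose levels are uncertain. The shares of mt-Nd1, mt-Nd2, mt-Nd4 and mt-Nd6 overlapped between these groups, and that of mt-Co1 was 39.7% to 42.2% at 94 dB, a narrow margin above the 37.9% to 39.7% at 70 dB. The ratio of mt-Nd5 to mt-Nd1 counts was 0.525 to 0.603 at 94 dB and 0.677 to 0.751 at 70 dB. For mt-Cytb, which lies beyond mt-Nd5 on the same strand, the ratio to mt-Nd1 went the other way. It was 1.42 to 1.65 at 94 dB and 1.28 to 1.43 at 70 dB, with a slight overlap.

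**Figure D4:**
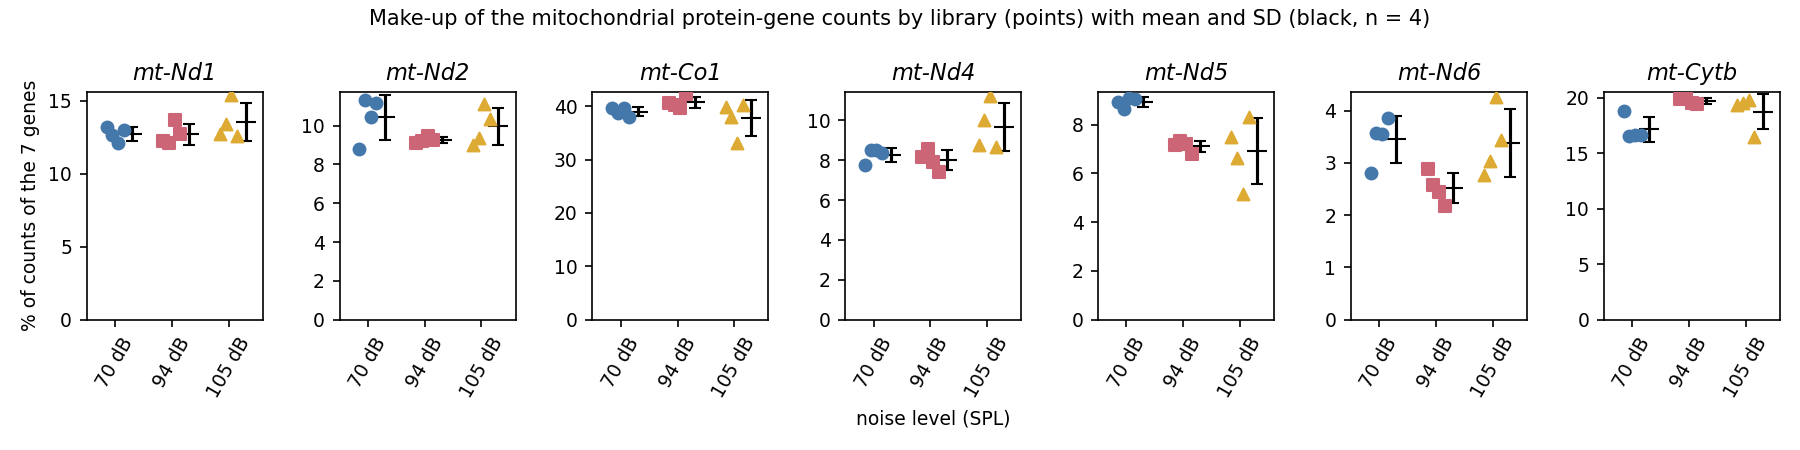
Share of each of the 7 abundant protein genes in their summed counts (percent), for each library at 70, 94 and 105 dB SPL, with the mean and SD of 4 libraries in black. The mt-Nd5 share is lower in every 94 dB and every 105 dB library than in any 70 dB library, and 105 dB replicate 3 has the lowest, 5.15%.

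The second comparison, of 105 dB with 70 dB, asked the same of louder noise. No mitochondrial gene passed: 0 of 13 protein genes, 0 of 2 rRNA genes and 0 of 10 tRNA genes were called by edgeR, where 1.62% of all genes were (0.508% lower, 1.11% higher). The median log2 fold change of the protein genes was -0.06. Protein genes took 4.66%, 4.25%, 4.23% and 5.13% of counts in the 105 dB libraries, against 4.95%, 5.18%, 5.46% and 5.11% in the 70 dB libraries, and the groups overlapped through 105 dB replicate 4. mt-Nd1 averaged 6185 ± 441 CPM at 105 dB and 6432 ± 112 CPM at 70 dB, and mt-Cytb 8551 ± 308 CPM at 105 dB and 8655 ± 338 CPM at 70 dB (SD, n = 4 each). Their log2 fold changes were -0.06 (SE 0.08) and -0.02 (SE 0.10), at edgeR adjusted p-values of 0.748 and 0.940.

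mt-Nd5 stood closest to the threshold in this comparison. It had 3496, 2825, 2229 and 4237 CPM in the 105 dB libraries, against 4241, 4435, 4886 and 4498 CPM in the 70 dB libraries. This was the single gene of the 13 protein genes whose groups did not overlap, with 105 dB replicate 4 just below the lowest 70 dB library. Of all genes, 10.8% did not overlap in this comparison (5.03% lay wholly lower and 5.78% wholly higher). A count of 1 in 13 is near that share and says nothing particular about these genes. The log2 fold change of mt-Nd5 was -0.50 (SE 0.17, edgeR adjusted p = 0.147). mt-Nd5 passed with DESeq2 (log2 fold change -0.50, adjusted p = 0.0311) and, with edgeR, without 105 dB replicate 4 (-0.65, adjusted p = 0.0346). It also passed with the code number in the sample titles as a block (-0.70, edgeR adjusted p = 0.0199), but not with the replicate number as a block. No other library shares the code number of 105 dB replicate 4, so the code block in effect leaves that library out. The 2 edgeR results are therefore not separate. Within the 7 abundant genes, mt-Nd5 took 5.15% to 8.32% at 105 dB, against 8.63% to 9.09% at 70 dB, and the mt-Nd4 share was 8.66% to 11.2% at 105 dB, against 7.75% to 8.51% at 70 dB. Neither share overlapped between the groups, with or without 105 dB replicate 3. The ratio of mt-Nd5 to mt-Nd1 counts was 0.334 to 0.661 at 105 dB and 0.677 to 0.751 at 70 dB, again without overlap. Replicate 3 was the farthest from the 70 dB libraries: mt-Nd5 was 5.15% there against 6.63% to 8.32% in the other 105 dB libraries, and mt-Co1 was 33.0% against 38.1% to 40.2%. In the same library mt-Nd6 had 0.826 counts per mt-Nd5 count, against 0.368 to 0.458 in the other 105 dB libraries. The summed level of the 5 erythroid markers was higher in every 105 dB library than in every 70 dB library (21159 to 30414 CPM against 17115 to 20999 CPM), and its part in these values was not tested.

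The third comparison set 105 dB against 94 dB directly. Protein genes took 4.23% to 5.13% of counts at 105 dB, against 2.55% to 3.42% at 94 dB, with no overlap. By edgeR, 10 of the 13 protein genes were higher at 105 dB, none was lower and 3 did not pass, where 17.3% of all genes passed, 8.07% of all genes as higher and 9.23% as lower. The median log2 fold change was 0.73 over the 13 genes and 0.00 over all genes. Groups did not overlap in 9 of the 13, all higher at 105 dB, where 10.5% of all genes lay wholly higher. This comparison shares the 94 dB libraries with the first, so the 2 are not independent.

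In complex I, mt-Nd1 had 5939, 5708, 6679 and 6414 CPM at 105 dB, against 4029, 4089, 3542 and 3364 CPM at 94 dB. It rose with a log2 fold change of 0.72 (SE 0.08, edgeR adjusted p = 3.49e-04), and every 105 dB library was above every 94 dB library. mt-Nd4 rose by 0.88 on the log2 scale (SE 0.12, adjusted p = 6.39e-04 by edgeR), and averaged 4404 ± 334 CPM at 105 dB and 2398 ± 468 CPM at 94 dB (SD, n = 4 each). In complex III, mt-Cytb rose by 0.54 (SE 0.10, adjusted p = 0.00264 by edgeR). These calls of mt-Nd1, mt-Nd4 and mt-Cytb held under each of 25 alternatives. The calls of mt-Nd2 (0.73), mt-Co1 (0.52), mt-Nd6 (1.03), mt-Nd4l (0.81), mt-Atp8 (1.07) and mt-Atp6 (1.04) ended without 94 dB replicates 3 and 4, at edgeR adjusted p-values of 0.0547 to 0.224, so that 3 of the 13 protein genes passed there. Of all 20202 genes tested in that setting, 217 passed, 57 of them as higher. The call of mt-Atp6 also ended when the counts of its copy Gm10925 were added (log2 fold change 0.50, adjusted p = 0.430) and without 94 dB replicate 3 or 4 alone (adjusted p of 0.0557 and 0.0543), and that of mt-Atp8 without 94 dB replicate 3 or 105 dB replicate 4 (adjusted p of 0.0657 and 0.0769). mt-Nd5 was called at 0.59 (SE 0.17, adjusted p = 0.0273 by edgeR) with overlapping groups, and the call ended without any of 94 dB replicates 3 and 4 or 105 dB replicates 1 and 4 (adjusted p of 0.0655 to 0.0900). With the code number in the sample titles as a block, the calls of mt-Nd5, mt-Nd6, mt-Atp8 and mt-Atp6 ended (edgeR adjusted p of 0.0672 to 0.118), which left 6 of the 13. This block in effect leaves out 105 dB replicate 4, the only library with its code number. Of all 19497 genes, 1414 passed with that block, 681 of them as higher. With the GC and length trend described below removed, the calls of mt-Co1 (0.40, edgeR adjusted p = 0.0658) and mt-Nd5 (0.45, adjusted p = 0.152) ended, which left 8 of the 13. There 1845 of the 19497 genes passed, 913 of them as higher.
mt-Co2, at a log2 fold change of 1.18 (SE 0.37), lay at an edgeR adjusted p of 0.0541, and its groups did not overlap. It passed in 4 of 25 alternatives: without 105 dB replicate 1 (edgeR adjusted p = 0.0301), with the 1 CPM filter (0.0443), with its copy's counts added (0.0455) and with DESeq2 (adjusted p = 0.00845). The other 21 left it uncalled. The rRNA genes mt-Rnr1 and mt-Rnr2 had log2 fold changes of 0.30 (SE 0.13) and 0.38 (SE 0.17) and edgeR adjusted p-values of 0.118 and 0.136. With the 8 libraries of these groups alone, both passed (adjusted p of 0.0440 and 0.0163), and without 70 dB replicate 1, which shares the fit, mt-Rnr2 did (adjusted p = 0.0310). The groups overlapped for mt-Rnr1, while mt-Rnr2 lay wholly higher at 105 dB, where 10.5% of all genes did. Together the rRNA genes took 0.177% to 0.206% of counts at 105 dB, against 0.129% to 0.161% at 94 dB, without overlap. Among the 10 tRNA genes that met the count rule, mt-Tl2 and mt-Ty were lower at 105 dB and 8 did not pass. These 2 calls among 10 are near the 17.3% called over all genes (9.23% lower), so the count says nothing particular about the class. mt-Tl2 had 0.174, 0.311, 0.547 and 0.0807 CPM at 105 dB, against 1.15, 1.19, 1.01 and 0.803 CPM at 94 dB, with a log2 fold change of -1.93 (SE 0.46, edgeR adjusted p = 0.0103). Its 105 dB libraries all lay below its 94 dB libraries, where 10.8% of all genes lay wholly lower; without 94 dB replicates 3 and 4 its adjusted p was 0.0775. mt-Ty had 1.32, 0.777, 0.676 and 0.861 CPM at 105 dB, against 2.09, 2.58, 2.08 and 1.29 CPM at 94 dB, with a log2 fold change of -1.13 (SE 0.27, edgeR adjusted p = 0.00986). For mt-Ty, 105 dB replicate 1 overlapped the lowest 94 dB library.

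**Figure D5:**
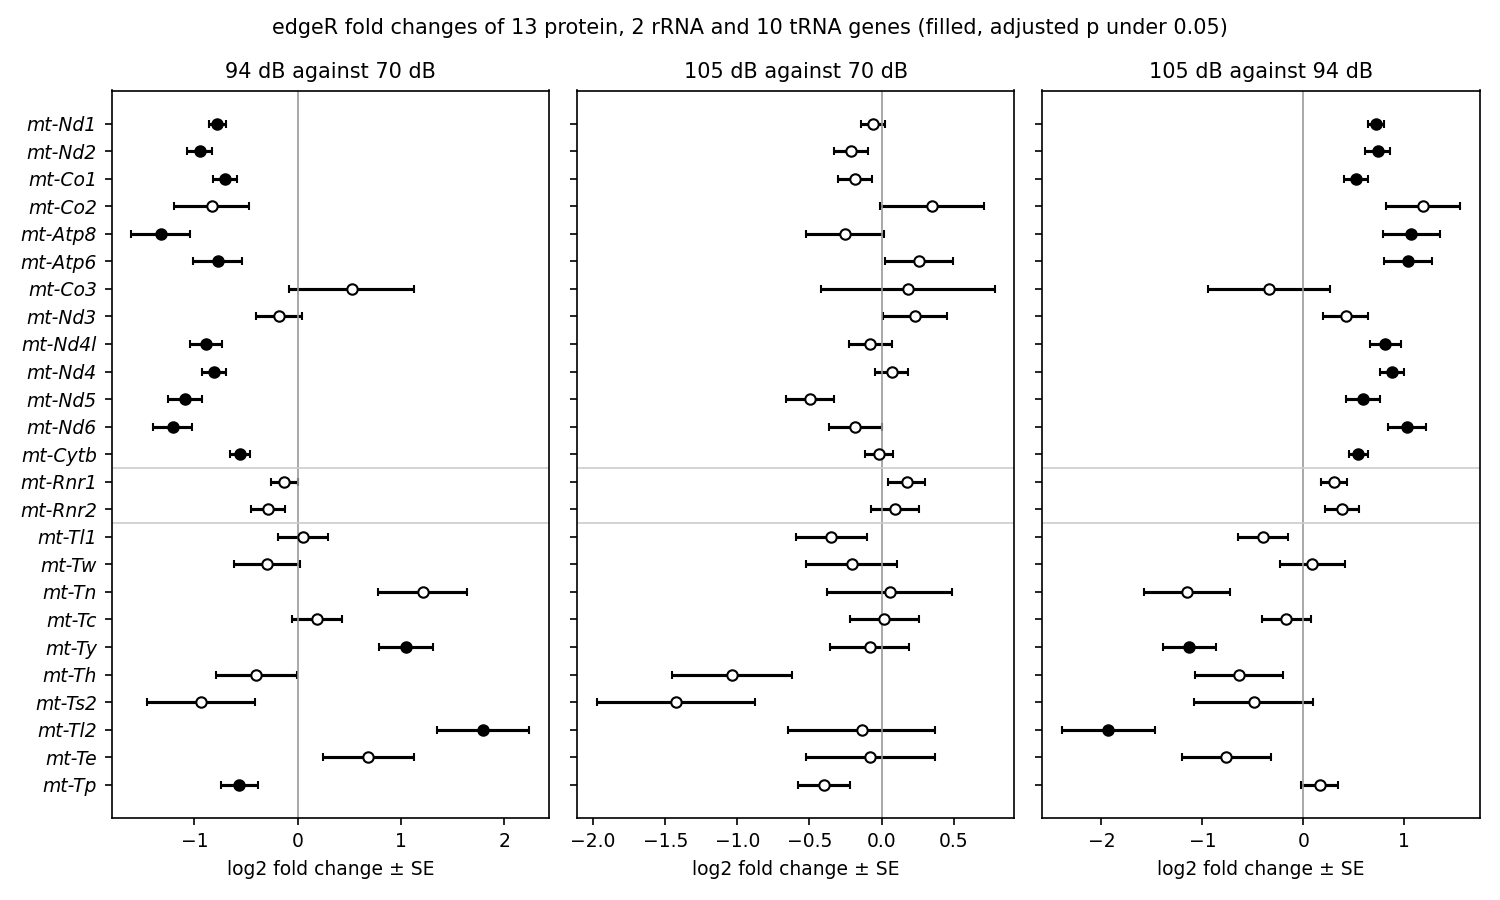
Log2 fold change with its standard error for the 13 protein, 2 rRNA and 10 tRNA genes in the 3 comparisons, with filled points where the edgeR adjusted p is under 0.05. Filled points lie left of 0 for 10 protein genes at 94 dB against 70 dB and right of 0 for 10 at 105 dB against 94 dB, and none is filled at 105 dB against 70 dB.

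The libraries also differed in how gene levels ranked with base composition and gene length. The 13 protein genes had a median GC content of 37.1%, against 49.6% over the 19484 tested genes with a transcript, and a median length of 784 bases, against 3723. Across genes, the deviation of a library from the mean of all libraries ranked with GC content at a Spearman rho of 0.25 to 0.45 in the 94 dB libraries, against -0.37 to -0.02 in the 70 dB libraries; genes are not independent replicates, and this is a description. With a spline fit to GC content and exon length removed from each library, 9 of 13 protein genes were lower at 94 dB than at 70 dB, with log2 fold changes of -0.67 for mt-Nd1, -0.60 for mt-Co1, -0.90 for mt-Nd5 and -0.47 for mt-Cytb. Of all 19497 genes tested, 3116 passed in that setting, 1154 of them as lower. In the same setting mt-Rnr1 was at 0.01 and mt-Rnr2 at -0.08, and mt-Tl2 and mt-Ty were at 1.97 and 1.14. Of the neutrophil markers 3 of 5 were higher at 94 dB than at 70 dB, where 13.9% of all genes were higher, with an overlapping summed level of 6741 to 13955 CPM at 94 dB against 6612 to 8236 CPM at 70 dB. Of the erythroid list 2 of 5 were higher at 94 dB (17816 to 31325 CPM against 17115 to 20999 CPM), and of the Schwann cell list 2 of 4 were lower (2299 to 3176 CPM against 2844 to 4704 CPM), where 12.2% of all genes were lower; these summed levels overlapped too. The part of these cells in the mitochondrial values was not tested beyond the share without haemoglobin genes given above.

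Nuclear genes that copy, transcribe and process mitochondrial nucleic acids were read from 5 lists of 79 genes, of which 78 were tested. At 94 dB against 70 dB, 15 were higher, 13 were lower and 50 did not pass, where 13.9% of all genes were higher and 12.2% lower, and the median log2 fold change was 0.01. Of 10 transcription genes, 2 were lower and none was higher; of 29 RNA processing genes, 7 were higher and 7 lower; of 12 DNA maintenance genes, 3 were higher and 2 lower; of 17 mitochondrial aminoacyl-tRNA synthetases, 3 were higher and 1 lower; and of 10 biogenesis regulators, 2 were higher and 1 lower. The nuclear receptor gene Esrra, a regulator of mitochondrial genes in the nucleus, had 96.3, 110, 149 and 134 CPM at 94 dB, against 61.9, 55.5, 50.8 and 46.1 CPM at 70 dB. It rose with a log2 fold change of 1.19 (SE 0.12, edgeR adjusted p = 4.02e-05) and without overlap. Rnaseh1, whose product removes RNA from RNA-DNA hybrids in mitochondrial replication, rose with a log2 fold change of 0.53 (SE 0.10, edgeR adjusted p = 0.00115). Mterf2, of the mitochondrial transcription termination factor family, averaged 5.82 ± 0.566 CPM at 94 dB and 9.46 ± 1.36 CPM at 70 dB (SD, n = 4 each), with a log2 fold change of -0.70 (SE 0.13, edgeR adjusted p = 0.00132). Mtpap, the mitochondrial poly(A) polymerase, fell by 0.35 on the log2 scale (SE 0.07, edgeR adjusted p = 0.00207), a call that ended with the GC and length trend removed (-0.18, adjusted p = 0.0603) or without 94 dB replicates 3 and 4 (-0.27, adjusted p = 0.0502). At 105 dB against 70 dB none of the 78 passed.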

How the data were processed

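The deposited file is 1 table of whole-number read counts per Ensembl gene, not normalised, for 35496 genes and 12 libraries. Per the submitters' processing notes, CASAVA, STAR and featureCounts 1.5.0-p3 were used with the mm10 build; the sources used here give neither their settings nor the annotation, the treatment of multiply mapped reads or the strand option. Group and replicate came from the sample titles. The titles give a replicate number, which is used here, and a code whose number skips 3 at 105 dB.

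Symbols, positions and transcripts came from GENCODE M21 (GRCm38), which named 35474 of the genes. The test of the raw counts used edgeR 4.0.16 (R 4.3.3): filterByExpr with a minimum count of 10 left 19497 genes and 99.9% of counts, TMM factors scaled the libraries, and 1 mean per noise level was fitted to all 12 libraries by glmQLFit with robust dispersions (9 residual degrees of freedom). Each comparison was tested with glmQLFTest and Benjamini-Hochberg adjustment over all genes, with a threshold of 0.05 and no fold threshold. CPM values are counts relative to TMM-scaled library sizes. A level per kilobase divides by gene length. Standard errors of log2 fold changes come from the F statistic. The test was checked on simulated counts. Nuclear copies were found with blastn 2.17.0 among the annotated transcripts (at least 99% identity over 200 bases for the chromosome 1 copies). A floor of 3 counts is 0.0702 to 0.0965 CPM, and such limits cover counting error only. Shares, ratios and their ranges were not tested.

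The alternatives were upper-quartile or DESeq2 size factors in edgeR, scaling without mitochondrial genes, no filter, a minimum of 1 CPM in 4 libraries, fits to the 8 libraries of a comparison alone, a block on replicate number or on title code, a spline on GC content and exon length, that spline with the replicate block, DESeq2 1.42.0, each library left out, and 94 dB replicates 3 and 4 left out together; adding the copies' counts was chosen after seeing the data. The members, the lists of nuclear genes and of markers, and the rule that named 2 list genes per direction by smallest p, were all chosen with earlier results of these data known. No libraries were duplicates (chi-square per degree of freedom 12.1 to 51.5 between libraries of a group).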

Additional observations from a re-analysis of the deposited data

Results flagged for a closer look

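A library was picked out where its value in a group of 4 lay so far from the rest that the gap passed Dixon's 95% limit. Of 108 groups of 4 libraries examined (25 mitochondrial genes, 7 copies on chromosome 1, and 4 shares or ratios of the gene classes, at 3 noise levels), 8 were picked out, and chance alone picks about 1 in 20. Among mitochondrial genes, mt-Co3 was at 225 CPM in 94 dB replicate 2 against 35.2 to 43.5 CPM in the other 94 dB libraries. mt-Atp8 was at 0.536 CPM in 94 dB replicate 3 against 0.824 to 0.857 CPM in the others. In 70 dB replicate 1, mt-Nd2 was at 4184 CPM and mt-Nd6 at 1334 CPM, against 5546 to 5823 CPM and 1841 to 1916 CPM in the other 70 dB libraries. Among the nuclear copies, Gm10925 and Gm28437 were at 235 and 213 CPM in 70 dB replicate 4, against 77.3 to 99.7 CPM and 48.6 to 73.8 CPM in the others. Gm29216 was at 189.5 CPM in 70 dB replicate 2 against 44.9 to 57.9 CPM, and Gm10222 was at 12.9 CPM in 105 dB replicate 4 against 8.98 to 9.60 CPM.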

How the results depend on the processing

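At 94 dB against 70 dB, 8 to 11 of the 13 protein genes were called lower over all 25 alternatives, and the sign of each called gene held in every comparison and alternative. Over all genes, 5084 passed at 94 dB against 70 dB, and 3116 after removal of the GC and length trend, 3374 after that with the replicate block, and 1610 without 94 dB replicates 3 and 4. At 105 dB against 70 dB, 316 passed, and 523 without a filter, 479 with the replicate block, 733 with the block and the GC and length trend, 884 with DESeq2, and 126 to 399 with 1 library left out (126 and 187 without 105 dB replicate 2 or 3, 149 and 191 without 70 dB replicate 4 or 1); upper-quartile factors gave 189 higher and 135 lower in place of 217 and 99. At 105 dB against 94 dB, 3374 passed, and 1414 with the block by title code, 1845 after removal of that trend, 1974 when the replicate block was added, 217 without 94 dB replicates 3 and 4, and 1650 to 3798 with 1 library left out (1996 and 2057 without 105 dB replicate 4 or 2, 1650 and 1860 without 94 dB replicate 3 or 4).

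For the mitochondrial genes, the 1 tRNA gene called lower at 94 dB against 70 dB became 0 without a filter, with the 8 libraries compared, after removal of the GC and length trend and without 94 dB replicates 3 and 4, and ranged over 0 to 1 with 1 library left out; rRNA genes called lower ranged over 0 to 1, with 1 without 70 dB replicate 1. At 105 dB against 70 dB, protein genes called lower were 1 in place of 0 with the block by title code and with DESeq2, and 0 to 1 with 1 library left out (1 without 105 dB replicate 4); tRNA genes called lower were 1 in place of 0 with the replicate block and the GC and length trend. At 105 dB against 94 dB, protein genes called higher were 6 in place of 10 with the block by title code, 6 with the replicate block and the GC and length trend, and 3 without 94 dB replicates 3 and 4. The rRNA genes called higher there were 2 in place of 0 with the 8 libraries compared, and 0 to 1 with 1 library left out; tRNA genes called lower were 1 in place of 2 with the filter of 1 CPM and without 94 dB replicates 3 and 4. The cause of these shifts was not tested, apart from fewer libraries or genes in the fit.

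The titles hold a replicate number and a code number, and neither is stated to mark a shared animal or day. Deviations from the group means correlated at -0.15 to 0.18 over 12 pairs with the same replicate number and at -0.04 to 0.18 over 10 pairs with the same code number, and not every library correlated best with its own number. Neither was treated as a pairing; the replicate block left 5084 genes called at 94 dB against 70 dB and 9 of 13 protein genes lower. For single genes, 2021 values kept their call and sign, 66 lost a call, 20 gained one, and 55 changed sign without a call. Depth limits the tRNA genes most: mt-Tl2, mt-Ts2 and mt-Th had as few as 3, 2 and 4 counts in a library. The genes wholly or partly in the copied stretch have uncertain levels.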

Other observations

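The 7 pseudogene copies on chromosome 1 were tested as genes of their own. Reads from sequence they share with the mitochondrial genes cannot be assigned by sequence, so their counts do not measure the nuclear copies apart. At 94 dB against 70 dB, Gm28439, the copy of the first part of mt-Nd4, was at 20.6, 20.3, 15.3 and 15.3 CPM in the 94 dB libraries, against 34.6, 42.5, 42.1 and 45.8 CPM in the 70 dB libraries. It was lower, without overlap, at a log2 fold change of -1.21 (SE 0.15, edgeR adjusted p = 1.5e-04), and mt-Nd4 itself at -0.81. Gm10222, the copy of mt-Nd4l, was the other copy called, and the remaining 5 copies had log2 fold changes of -0.41 to -1.41 with edgeR adjusted p-values of 0.0654 to 0.406. Over all genes, 26.1% passed in this comparison. At 105 dB against 94 dB, Gm28439, Gm10222 and Gm28661, the copy of mt-Co2, were higher, with log2 fold changes of 0.97, 0.43 and 1.05 (edgeR adjusted p = 0.00196, 0.0361 and 0.0464). There 17.3% of all genes passed, 8.07% of all genes as higher. None of the copies was called at 105 dB against 70 dB.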
